A study of Homo sapiens with 4 samples.

Results

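The aryl hydrocarbon receptor pathway is described here by 8 genes of the 60656 gene IDs in each count table, taken by name: the receptor gene AHR, its partner gene ARNT, the repressor gene AHRR, and the target genes TIPARP, CYP1A1, CYP1A2, CYP1B1 and ALDH3A1. All 8 were found by symbol, and 5 of them (AHR, ARNT, TIPARP, CYP1A1 and CYP1B1) had enough reads to be among the 19103 genes tested. The measurement is TTchem-seq, which labels RNA while it is being made with the uridine analog 4-thiouridine and sequences only the labelled RNA, and the cells are HCT116, a line from a human colorectal carcinoma. There were 2 DKO and 2 WT libraries.

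The DKO group is HCT116 TOP2A mAID/TOP2B -/-, in which TOP2A carries an auxin-inducible degron (mAID) and TOP2B is knocked out, given 500 µM indole-3-acetic acid (auxin) for 8 h to degrade the TOP2A protein. The genotype label of the WT group is wildtype, with no auxin recorded and no statement that it was withheld, although the treatment protocol names an HCT116 TOP2A mAID line as the other line used. Whether the WT libraries carry the degron is therefore not clear from the labels. Both groups shared 28 h in 2 µM palbociclib, a CDK4/6 inhibitor that holds cells in G1, and a final 30 min in 1 mM 4-thiouridine. No clone is named for either group, and nothing tells whether the replicates came from separate cultures, so p-values measure the spread between these libraries only. Auxin is an indole, and several indoles are known ligands of the aryl hydrocarbon receptor. Loss of the topoisomerases, a difference in auxin as far as the labels record it, and a difference between cell lines cannot be told apart here.

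As background, the aryl hydrocarbon receptor waits in the cytosol in a complex with the chaperone HSP90. A bound ligand, such as a dioxin or an indole made from tryptophan, sends it into the nucleus, where it pairs with ARNT and binds response elements with the core GCGTG. Its targets include the cytochrome P450 genes of the CYP1 family, which oxidise many of the ligands, and a pair of brakes on the receptor: AHRR, which competes for ARNT, and TIPARP, which encodes a mono-ADP-ribosyltransferase that limits the receptor.

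Promoter sequences are shown for the pair of target genes with the most reads and for CYP1A2, the neighbour of CYP1A1, so that the start-proximal sequence can be set beside the values that follow. A RefSeq window (GRCh38.p14) was listed for 6 of the 8 genes, and CYP1B1 and ALDH3A1 had none in that table. Each window below is the 250 bases before the annotated start, given 5′ to 3′ on the strand of the gene, with the core GCGTG (or CACGC, the same core on the other strand) and the TATA box letters TATAAA in capitals. The windows are chr3:156674340-156674589 (plus strand) for the first listed start of TIPARP, chr15:74725529-74725778 (minus strand) for CYP1A1 and chr15:74748595-74748844 (plus strand) for CYP1A2.
TIPARP: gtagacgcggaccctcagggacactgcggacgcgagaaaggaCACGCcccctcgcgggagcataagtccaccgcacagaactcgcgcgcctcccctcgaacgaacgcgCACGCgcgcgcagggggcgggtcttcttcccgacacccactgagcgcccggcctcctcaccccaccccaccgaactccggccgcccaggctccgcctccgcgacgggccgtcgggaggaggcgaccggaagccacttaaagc
CYP1A1: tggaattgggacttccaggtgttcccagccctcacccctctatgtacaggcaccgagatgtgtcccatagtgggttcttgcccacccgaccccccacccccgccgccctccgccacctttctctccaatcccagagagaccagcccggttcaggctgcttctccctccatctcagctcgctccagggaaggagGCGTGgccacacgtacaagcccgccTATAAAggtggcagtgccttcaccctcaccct
CYP1A2: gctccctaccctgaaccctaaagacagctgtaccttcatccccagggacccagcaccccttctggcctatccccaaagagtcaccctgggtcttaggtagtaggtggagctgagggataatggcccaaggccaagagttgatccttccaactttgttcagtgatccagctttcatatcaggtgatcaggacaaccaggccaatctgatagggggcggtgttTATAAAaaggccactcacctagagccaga

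TIPARP has 3 listed starts, and the window printed is that of the first, which held 2 copies of the core, both on the opposite strand, beginning 208 and 142 bases before the start. The windows of its 2 later starts held none. The CYP1A1 window held 1 copy on the gene strand, 57 bases before the start, and a TATAAA 32 bases before it. The CYP1A2 window held no core and a TATAAA 29 bases before the start. No core was found in the windows of AHR and ARNT either, and AHRR had 1 copy in the window of its first listed start and 2 in that of its second. The core is short and frequent: 32.2% of 34943 annotated promoter windows held at least 1 copy on either strand and 10.2% held 2 or more. TATAAA on the gene strand was found in 6.82%. GC content was 71.6% in the first TIPARP window, 74% and 38% in those of its later starts, 62.4% in that of CYP1A1 and 52.8% in that of CYP1A2, against a median of 58% over all windows. A match is a description of the letters and not of binding, and the well-known dioxin-responsive enhancer of CYP1A1 lies farther upstream than these windows reach.

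Total counts were 53000795 and 53777749 for the DKO libraries, against 51718468 and 51142867 for the WT libraries. TOP2A, whose protein is the one degraded, was higher in DKO (166 ± 2.3 CPM in DKO against 124 ± 2.4 CPM for WT; SD, n = 2 each; log2 fold change 0.42 ± 0.05), where CPM is counts per 1e6 reads of the scaled library size. TOP2B was not called (149 ± 1.8 CPM in DKO and 142 ± 2 CPM in WT, adjusted p = 0.223), and a count over the whole gene does not show a small edit, so it does not check the labels. Epithelial markers were present, with EPCAM at 72.6 ± 0.48 CPM in DKO and 70.6 ± 1.9 CPM in WT, while CEACAM5 had no reads in any library. Of the 12 epithelial markers, 9 were tested, 6 were lower and none higher in DKO, where 21.1% of all tested genes were lower and 19% higher, and their summed level was 461 to 473 CPM in DKO and 507 to 536 CPM in WT. Hepatocyte markers, listed because CYP1A2 is a liver gene, summed to 3.15 to 3.53 CPM in DKO and 2.27 to 2.34 CPM in WT, with 1 of 3 tested genes higher. ALB had 0.103 CPM in DKO and 0.165 CPM in WT on average, and FGB had no reads. Fibroblast markers summed to 3.14 to 3.73 CPM in DKO and 3.59 to 3.86 CPM in WT, and immune markers to 0.526 to 0.62 CPM in DKO and 0.54 to 0.666 CPM in WT. COL1A2, LUM and PDGFRA had no reads in any library. Neuronal markers summed to 526 to 600 CPM in DKO and 137 to 142 CPM in WT, nearly all of it SYT1. Of 6 tested neuronal genes 3 were higher, of which NCAM1 passed the filter on low counts through the DKO libraries alone. The part of these marker differences in the results below was not tested.

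The 3 well-counted targets TIPARP, CYP1A1 and CYP1B1 rose in DKO, by 2.68- to 4.24-fold, while neither the receptor gene nor its partner passed the test. Of the 5 tested genes, 3 were higher and none lower at an adjusted p under 0.05, where 19% of all 19103 tested genes were higher and 21.1% lower, or 40.1% in either direction. All p-values for single genes are Benjamini-Hochberg adjusted values of the quasi-likelihood test of edgeR over all tested genes, with 2 libraries per group. Errors on log2 fold changes are standard errors derived from its F statistic. In bulk libraries, more cells with an RNA and more of it per cell cannot be told apart.

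**Figure D1:**
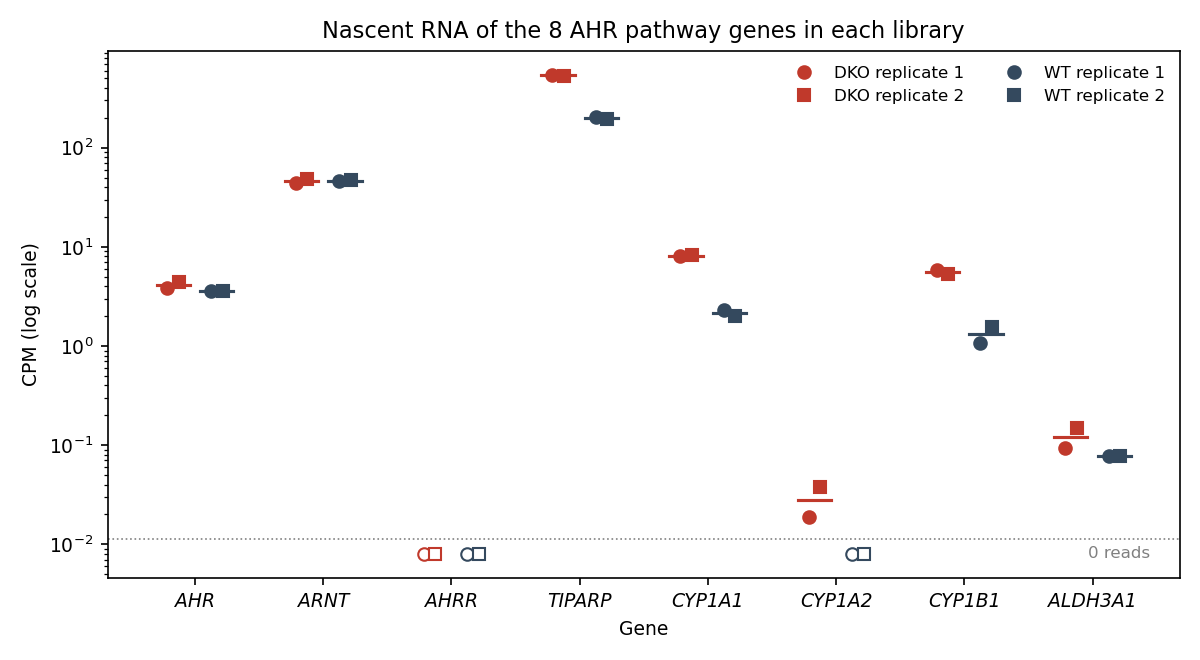
Level of each of the 8 genes in CPM on a log axis, DKO in red left of WT in dark blue, with 1 point per library, a bar at the mean of 2 libraries and open symbols for 0 reads. TIPARP, CYP1A1 and CYP1B1 are called higher in DKO, with both DKO values above both WT values. AHR is not called, though its DKO values also lie above its WT values. CYP1A2 and ALDH3A1 had too few reads to be tested, and no separation is read from their points. CYP1A2 had 1 and 2 reads in DKO against 0 and 0 in WT, and ALDH3A1 had 5 and 8 against 4 and 4. The share of all genes separated in this way was not counted. ARNT overlaps between the groups, and AHRR has no reads in any library.

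AHR (ENSG00000106546.14) encodes the receptor itself and spans 47.5 kb of chromosome 7, from 17298652 to 17346147. It had 207 and 235 reads in the DKO libraries, against 186 and 185 in the WT libraries, or 3.89 and 4.41 CPM in DKO and 3.59 and 3.62 CPM in WT. Both DKO values lay above both WT values, but the DKO libraries differed from each other by more than DKO replicate 1 did from WT. The log2 fold change was 0.2 ± 0.12 (SE, adjusted p = 0.189), with a 95% interval of 0.972- to 1.36-fold, so the gene was not called and a rise of up to that size is within the error. The tested gene nearest to AHR was LINC02889, a long non-coding RNA gene 117 kb away, which rose by a log2 of 0.82 ± 0.23 (adjusted p = 0.00171) at 1.01 and 1.43 CPM in DKO and 0.656 and 0.724 CPM in WT. That call ended in 5 of 14 alternatives, among them the DESeq2 test (adjusted p = 0.0791) and leaving out DKO replicate 2 (0.55, adjusted p = 0.133), WT replicate 1 (adjusted p = 0.189) or WT replicate 2 (adjusted p = 0.116).

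ARNT (ENSG00000143437.21) encodes the DNA-binding partner that the receptor shares with the hypoxia-inducible factors and spans 66.9 kb of chromosome 1, from 150809713 to 150876599. Its counts were 2359 and 2572 in DKO, against 2370 and 2405 in WT. The levels were 44.3 and 48.2 CPM in DKO and 45.7 and 47.1 CPM in WT, so that both WT values lay between the DKO values. The log2 fold change was -0.0039 ± 0.05 (adjusted p = 0.967), and its sign turned with the scaling and the library left out. The 95% interval ran from 0.926- to 1.07-fold. Next to it, CTSK, the gene of a bone-resorbing protease 1.45 kb away, was called higher (log2 fold change 0.36 ± 0.13, adjusted p = 0.0216), while CTSS (0.45 ± 0.27, adjusted p = 0.192) and the histone methyltransferase gene SETDB1 (-0.1 ± 0.05, adjusted p = 0.133) were not. The CTSK call ended in 5 of 15 alternatives, with the DESeq2 test (adjusted p = 0.165), with no filter (0.128) and without DKO replicate 2 (0.179), WT replicate 1 (0.132) or WT replicate 2 (0.221).

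AHRR (ENSG00000063438.18) encodes the repressor and spans 117 kb of chromosome 5, from 321714 to 438285. It had 0 reads in every library. The annotation places the whole gene inside PDCD6-AHRR, a readthrough gene on the same strand whose span starts with PDCD6, and PDCD6, a widely expressed calcium-binding protein gene, also had 0 reads in every library. Such zeros were common in these tables: of 309 protein-coding genes lying wholly inside another gene on the same strand, 74.4% had no reads in any library, against 20.4% of 358 genes inside a gene on the opposite strand and 11.7% of 14643 genes inside no other gene. The 0 for AHRR therefore gives no information on its transcription. PDCD6-AHRR itself had 58 and 47 reads in DKO and 39 and 52 in WT, with overlapping groups (log2 fold change 0.16 ± 0.22, adjusted p = 0.621). Among the other genes near AHRR, the nearest, EXOC3-AS1 (0.34 ± 0.16, adjusted p = 0.0721), and the exocyst gene EXOC3 (0.09 ± 0.06, adjusted p = 0.239) were not called, and CCDC127, 104 kb away, was called lower (-0.32 ± 0.08, adjusted p = 0.000679), but not without WT replicate 1 (0.0781) or WT replicate 2 (0.0542).

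TIPARP (ENSG00000163659.13), the ADP-ribosyltransferase target that feeds back on the receptor, carried most of the reads of the pathway. It spans 32.2 kb of chromosome 3, from 156674590 to 156706770. It had 28992 and 28283 reads in DKO, against 10615 and 10030 in WT, or 545 and 530 CPM in DKO and 205 and 196 CPM in WT. The groups did not overlap, and libraries of a group lay within a few percent of each other. The log2 fold change was 1.42 ± 0.05 (2.68-fold, 95% interval 2.5 to 2.87, adjusted p = 5.43e-69). By level, TIPARP ranked 167 and 200 among all tested genes in the DKO libraries and 1065 and 1155 in the WT libraries. Among the 485 tested genes with a mean level at or above that of TIPARP, itself included, none had a larger log2 fold change. That cutoff is its own level, and over all tested genes 303 had a larger log2 fold change. SYT1, below the cutoff, had 2.05 ± 0.05 at 513 and 586 CPM in DKO.

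CYP1A1 (ENSG00000140465.14) encodes a cytochrome P450 that oxidises polycyclic aromatic compounds and is the classical reporter of receptor activity. It spans 5.99 kb of chromosome 15, from 74719542 to 74725528. Counts were 427 and 438 in DKO, against 121 and 102 in WT, which is 8.02 and 8.21 CPM in DKO and 2.33 and 2 CPM in WT. Every DKO value was more than 3 times every WT value. The log2 fold change was 1.9 ± 0.12 (3.74-fold, 95% interval 3.17 to 4.42, adjusted p = 1.32e-34). The gene was read in WT cells too, well above the 0.0579 and 0.0587 CPM to which 3 counts correspond in those libraries.

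CYP1A2 (ENSG00000140505.7), the liver paralog that metabolises caffeine, lies 23.3 kb from CYP1A1, on chromosome 15 from 74748845 to 74756607. It had 1 and 2 reads in DKO and 0 and 0 in WT. These sums of 3 and 0 reads have exact 95% Poisson intervals of 0.619 to 8.77 reads in DKO and 0 to 3.69 reads in WT, which cover counting error only. Both groups were at or under the floor of 3 counts, so no fold change is given, and no difference was detectable at this depth. The gene on the other side, CSK, which encodes a kinase that restrains SRC, was lower in DKO (log2 fold change -0.22 ± 0.06, adjusted p = 0.00242), and EDC3, an mRNA decapping gene on the far side of CYP1A1, was not called (-0.09 ± 0.05, adjusted p = 0.146). CSK was not called without WT replicate 1 (-0.15, adjusted p = 0.176) or with no filter (adjusted p = 0.1). The rise of CYP1A1 thus stood between neighbours that were lower or not called.

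CYP1B1 (ENSG00000138061.12) encodes the P450 of the family that acts on oestrogens and retinoids outside the liver. It spans 8.64 kb of chromosome 2, from 38067509 to 38076151. It had 308 and 286 reads in DKO, against 55 and 80 in WT, or 5.78 and 5.36 CPM in DKO and 1.06 and 1.57 CPM in WT. The WT libraries disagreed more than the DKO libraries did, but all DKO values were far above them. The log2 fold change was 2.09 ± 0.14 (4.24-fold, 95% interval 3.48 to 5.17, adjusted p = 8.5e-31). Without WT replicate 1 the log2 fold change was 1.83 and without WT replicate 2 it was 2.39. RMDN2, 0.371 kb from CYP1B1, was not called (0.14 ± 0.06, adjusted p = 0.0541). The antisense RNA genes RMDN2-AS1 (1.01 ± 0.31, adjusted p = 0.00525) and CYP1B1-AS1 (0.52 ± 0.12, adjusted p = 8.76e-05) rose, CYP1B1-AS1 with 294 and 284 reads in DKO and 200 and 190 in WT. The RMDN2-AS1 call ended in 5 of 13 alternatives, with the DESeq2 test (adjusted p = 0.126), with no filter (0.068) and without DKO replicate 2 (0.0946), WT replicate 1 (0.147) or WT replicate 2 (0.079). CYP1B1-AS1 was not called without WT replicate 1 (adjusted p = 0.057). The library kit was stranded, per the labels, but the strand setting of the counting is not given, and the listed span of CYP1B1-AS1 lies 55 kb from CYP1B1.

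ALDH3A1 (ENSG00000108602.18) encodes an aldehyde dehydrogenase that is strongly induced through the receptor in liver cells and spans 10.3 kb of chromosome 17, from 19737984 to 19748298. It had 5 and 8 reads in DKO, against 4 and 4 in WT. The sums of 13 and 8 reads have exact Poisson intervals of 6.92 to 22.2 reads in DKO and 3.45 to 15.8 reads in WT, which overlap widely. It did not pass the filter on low counts. Lifting that filter gave a log2 fold change of 0.63 (adjusted p = 0.544), and no difference was detectable at this depth. Of its neighbours, the autophagy kinase gene ULK2 was higher (0.32 ± 0.06, adjusted p = 6.74e-06) and the paralog ALDH3A2, a fatty aldehyde dehydrogenase gene, slightly lower (-0.17 ± 0.05, adjusted p = 0.00636). Neither was called without WT replicate 1 (adjusted p = 0.0827 and 0.11) or WT replicate 2 (0.0601 and 0.121).

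Levels can be compared between genes per kb of RefSeq span, with the limit that the length over which reads were counted is not given. In DKO the order was TIPARP at 16.7 ± 0.31 CPM per kb, CYP1A1 at 1.36 ± 0.023, ARNT at 0.692 ± 0.041, CYP1B1 at 0.645 ± 0.035 and AHR at 0.0873 ± 0.0077 (SD, n = 2 each). ARNT and CYP1B1 overlapped in DKO, at 0.662 and 0.721 CPM per kb for ARNT and 0.669 and 0.62 for CYP1B1, while the other neighbours in that order did not. In WT the order was TIPARP at 6.23 ± 0.18 CPM per kb, ARNT at 0.694 ± 0.015, CYP1A1 at 0.362 ± 0.04, CYP1B1 at 0.152 ± 0.041 and AHR at 0.0759 ± 0.00052, with no overlap between neighbours. Per kb of span, CYP1A1 stood above ARNT in DKO and below it in WT. Without division by span it stood below ARNT in both groups, at 8.12 against 46.3 CPM in DKO and 2.17 against 46.4 CPM in WT. The change of order thus rests on the span used.

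The sizes of the 3 rises can be set against each other by the ratio of reads within a library. CYP1A1 gave 1.47 and 1.55 reads per 100 TIPARP reads in DKO, against 1.14 and 1.02 in WT. CYP1B1 gave 1.06 and 1.01 reads per 100 TIPARP reads in DKO, against 0.518 and 0.798 in WT. For both ratios the groups did not overlap, and the exact two-sided permutation p was 0.333, the smallest that 2 libraries against 2 allow. CYP1B1 per 100 CYP1A1 reads overlapped, at 72.1 and 65.3 in DKO and 45.5 and 78.4 in WT (exact permutation p = 1).

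**Figure D2:**
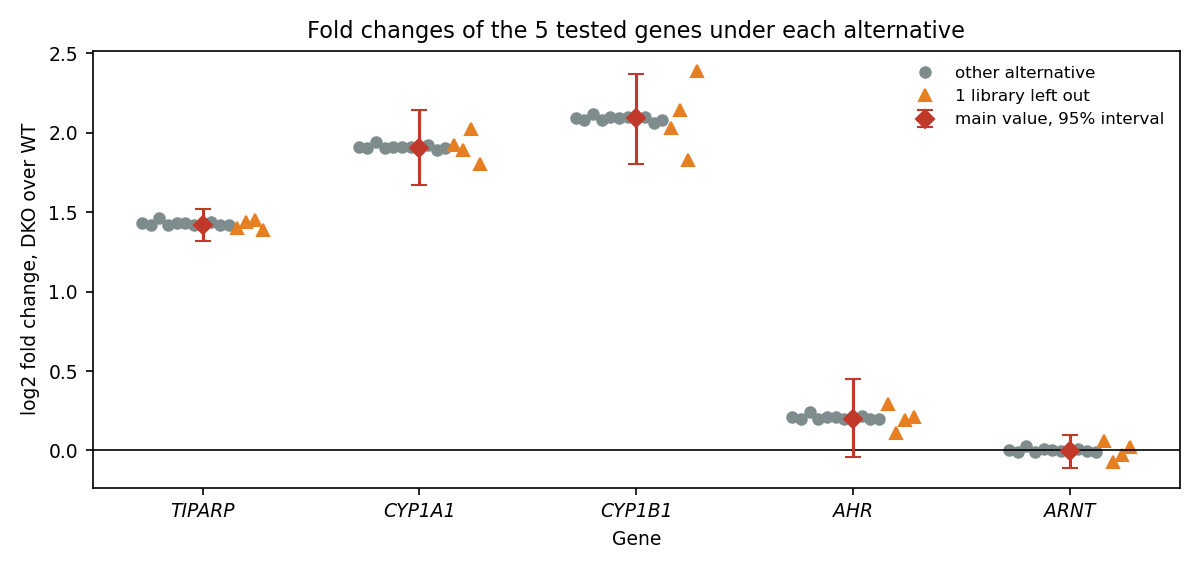
Log2 fold change, DKO over WT, of the 5 tested genes, with the main value and its 95% interval in red, values with 1 library left out as orange triangles and other alternatives as grey points. TIPARP stays between 1.39 and 1.46, CYP1A1 between 1.8 and 2.02 and CYP1B1 between 1.83 and 2.39, and ARNT lies on both sides of 0.

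By the distance between centred log2 CPM profiles over the 4 libraries, the genes most like TIPARP among 9095 other well-read protein-coding genes were NR2F1, LRP12 and SNTB1, at distances of 0.0961, 0.122 and 0.126. NR2F1, an orphan nuclear receptor gene, had 29.2 and 28.4 CPM in DKO and 11.2 and 9.85 CPM in WT. LRP12, a lipoprotein receptor family gene, had 38.4 and 41.5 CPM in DKO and 15 and 15.2 CPM in WT. SNTB1, a syntrophin gene, had 535 and 578 CPM in DKO and 220 and 215 CPM in WT, close to the level of TIPARP itself. Over 4 libraries in 2 groups such likeness mostly means a like fold change.

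A further 6 lists of related genes were read in the same fit, and for each the share of called genes stands beside the 19% higher and 21.1% lower among all tested genes and their median log2 fold change of -0.00634. The lists were put together with earlier results of these data known, so they are described by counts only. Of 46 called genes that the naming rule took from the lists and loci, 14 were called in every alternative that tested them, 13 lost the call only where a WT library was left out, and 19 lost it in another setting too.

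The list of other receptor targets had 13 of 20 genes tested, of which 10 were higher (76.9%) and 2 lower (15.4%), with a median log2 fold change of 0.53. HES1, a transcription factor gene of the NOTCH pathway, rose most among them, at 5.23 ± 0.21 CPM in DKO and 1.82 ± 0.061 CPM in WT (log2 fold change 1.52 ± 0.14, adjusted p = 1.75e-21). EREG, the gene of the growth factor epiregulin, had 571 ± 22 CPM in DKO and 272 ± 17 CPM in WT (1.07 ± 0.05). ALDH1A3, which makes retinoic acid, had 501 ± 6.6 CPM in DKO and 262 ± 22 CPM in WT (0.94 ± 0.05). The cystine transporter gene SLC7A11 followed with 0.81 ± 0.05, and it answers to other stress factors as well. NQO1, a quinone reductase gene shared with the NRF2 pathway, had 72.4 ± 1.4 CPM in DKO and 47.5 ± 0.77 CPM in WT (0.61 ± 0.05). The 2 that fell were CYP2S1, another P450 gene (-0.42 ± 0.12), and KLF6, a zinc finger factor gene (-0.17 ± 0.05). CYP2S1 rested on single libraries: it was -0.18 without DKO replicate 1 (adjusted p = 0.34) and was not called with the DESeq2 test (0.101), with no filter (0.28), or without WT replicate 1 (0.226) or WT replicate 2 (0.335). KLF6 was not called with no filter (adjusted p = 0.124) or without DKO replicate 2 (0.0576), WT replicate 1 (0.242) or WT replicate 2 (0.0864). HES1, EREG, ALDH1A3 and SLC7A11 kept their calls in all 15 alternatives. UGT1A1 and UGT1A6 had 0 reads in every library, and both belong to a gene cluster with shared last exons, so their zeros are not read as absence either. IL1B and IL6, inflammatory targets, were at or near 0 in both groups.

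Genes for the receptor's chaperones and turnover factors split, with 2 higher (15.4%), 4 lower (30.8%) and 7 not called of 13 tested, and a median of -0.03. HSP90AB1, a gene of the chaperone that holds the receptor in the cytosol, did not pass the test, at 341 ± 15 CPM in DKO and 336 ± 10 CPM in WT. SRC, the kinase released from the complex by ligand, fell by 0.55 on the log2 scale (SE 0.05). It lies on chromosome 20, whose 428 tested genes had a median log2 fold change of -0.594. The ubiquitin ligase gene STUB1 (-0.46 ± 0.13) and the genes of a ubiquitin ligase scaffold and its receptor-linked subunit, CUL4B (-0.19 ± 0.05) and TBL3 (-0.24 ± 0.08), were also lower. Without WT replicate 1 STUB1 was -0.25 (adjusted p = 0.239), TBL3 -0.1 (0.5) and CUL4B -0.16 (0.125), and none was called. With the DESeq2 test STUB1 (adjusted p = 0.0683) and TBL3 (0.13) were not called either, while SRC kept its call in all 14 alternatives that tested it. UBE2D1, a ubiquitin-conjugating enzyme gene (0.34 ± 0.05), and the importin gene KPNA2 (0.15 ± 0.05) were higher. Without WT replicate 1 UBE2D1 was 0.28 and KPNA2 0.12. The UBE2D1 call ended in 1 of 15 alternatives. That of KPNA2 ended in 4 of 15, among them no filter (adjusted p = 0.107, edgeR).

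Among 17 tested genes of the bHLH-PAS and PAS families, the protein class of AHR and ARNT, 6 were higher (35.3%) and 1 lower (5.88%), with a median of 0.13. NPAS3, not called, passed the filter through the DKO libraries alone. Without it the list had 6 higher (37.5%) and 1 lower (6.25%) of 16, with a median of 0.12. The clock genes BMAL2 (0.48 ± 0.05) and BMAL1 (0.39 ± 0.05) and HIF1A, the gene of an oxygen-regulated transcription factor (0.35 ± 0.05), rose, and the coactivator gene NCOA3, on chromosome 20, fell (-0.54 ± 0.05). ARNT2, the close relative of ARNT, was not called, at 38.8 ± 0.54 CPM in DKO and 37 ± 0.6 CPM in WT. With upper quartile factors 11 of these genes were called, where 4226 of all tested genes were higher and 3328 lower.

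Of 16 coactivator and corepressor genes, 5 were higher (31.2%) and 1 lower (6.25%), with a median of 0.06. NRIP1, which encodes a nuclear receptor cofactor, stood far from the rest, at 7.31 ± 0.72 CPM in DKO and 1.44 ± 0.12 CPM in WT (log2 fold change 2.34 ± 0.13, adjusted p = 1.12e-39). TRIP11 (0.27 ± 0.05) and the acetyltransferase genes CREBBP (0.18 ± 0.05) and EP300 (0.13 ± 0.05) were among those that rose slightly, and RELB of the NF-kB family fell (-0.23 ± 0.06). With either WT library left out, fewer genes of this list were called, and the same held over all tested genes.

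Enzymes that make or break down tryptophan-derived ligands gave 3 higher (27.3%) and 2 lower (18.2%) of 11 tested, with a median of 0.04. TDO2, which opens the tryptophan ring, had 16 and 24 reads in DKO and 2 and 4 in WT. It passed the filter through the DKO libraries alone, so nothing is read from its call, and without it the list had 2 higher (20%) and 2 lower (20%) of 10, with a median of 0.01. IDO1, another ring-opening enzyme gene, was at 0.0469 CPM in DKO and 0.0292 CPM in WT, under the level of 3 counts. MAOB, a monoamine oxidase gene (0.38 ± 0.06), and KYAT3, a kynurenine aminotransferase gene (0.13 ± 0.06, adjusted p = 0.0475), were the other rises, and the KYAT3 call ended in 10 of 15 alternatives. AFMID, a formamidase gene (-0.29 ± 0.06), and AADAT, an aminotransferase gene (-0.22 ± 0.06), fell. Fewer of these enzyme genes, like fewer of all tested genes, were called with either WT library left out.

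Hypoxia targets, which need ARNT with another partner, went both ways, with 5 higher (38.5%) and 3 lower (23.1%) of 13 tested and a median of 0. NDRG1 (1.07 ± 0.05), the histone demethylase gene KDM3A (0.56 ± 0.05), the glucose transporter gene SLC2A1 (0.32 ± 0.05), BNIP3L (0.31 ± 0.07) and the collagen hydroxylase gene P4HA1 (0.21 ± 0.05) rose. BNIP3 (-0.38 ± 0.09), the peptide hormone gene ADM (-0.27 ± 0.06) and the lactate dehydrogenase gene LDHA (-0.2 ± 0.05) fell. NDRG1, KDM3A and SLC2A1 kept their calls in all 15 alternatives, and the other 5 lost them without WT replicate 1. VEGFA, the vascular growth factor gene, was not called, at 43.4 ± 1.1 CPM in DKO and 45.4 ± 0.68 CPM in WT.

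**Figure D3:**
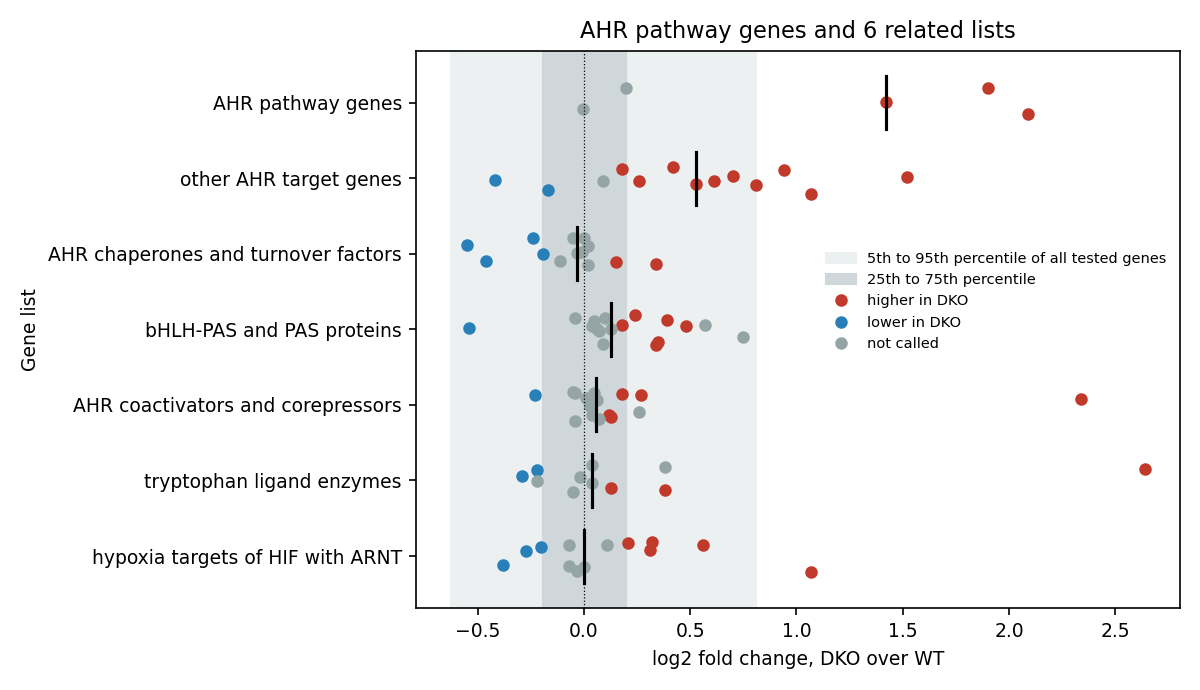
Log2 fold change, DKO over WT, of each tested gene of the pathway and of 6 related lists, red where called higher, blue where called lower and grey where not called, with a black bar at the list median and shaded percentile ranges of all tested genes. The median is 0.53 for the other receptor targets and between -0.03 and 0.13 for the remaining 5 related lists.

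At the TIPARP locus, TIPARP-AS1, an antisense RNA gene that overlaps the start of TIPARP, rose with it (log2 fold change 0.89 ± 0.22, adjusted p = 0.000298), with 81 and 69 reads in DKO and 48 and 30 in WT. It was 1.26 without WT replicate 1 (adjusted p = 0.051) and 0.6 without WT replicate 2 (0.129), not called in either case. LINC00886, 40.6 kb beyond the end of the gene, had 111 and 109 CPM in DKO and 74 and 71.5 CPM in WT (0.6 ± 0.05). SSR3, 119 kb away on the other side, a gene of the protein translocation machinery, was called higher by a log2 of 0.16 ± 0.05, though not without DKO replicate 1 (adjusted p = 0.0669), WT replicate 1 (0.161) or WT replicate 2 (0.172), and the pseudogene METTL15P1 was not called. Reads of TIPARP and TIPARP-AS1 in their shared stretch cannot be told apart where the strand setting of the counting is unknown.

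**Figure D4:**
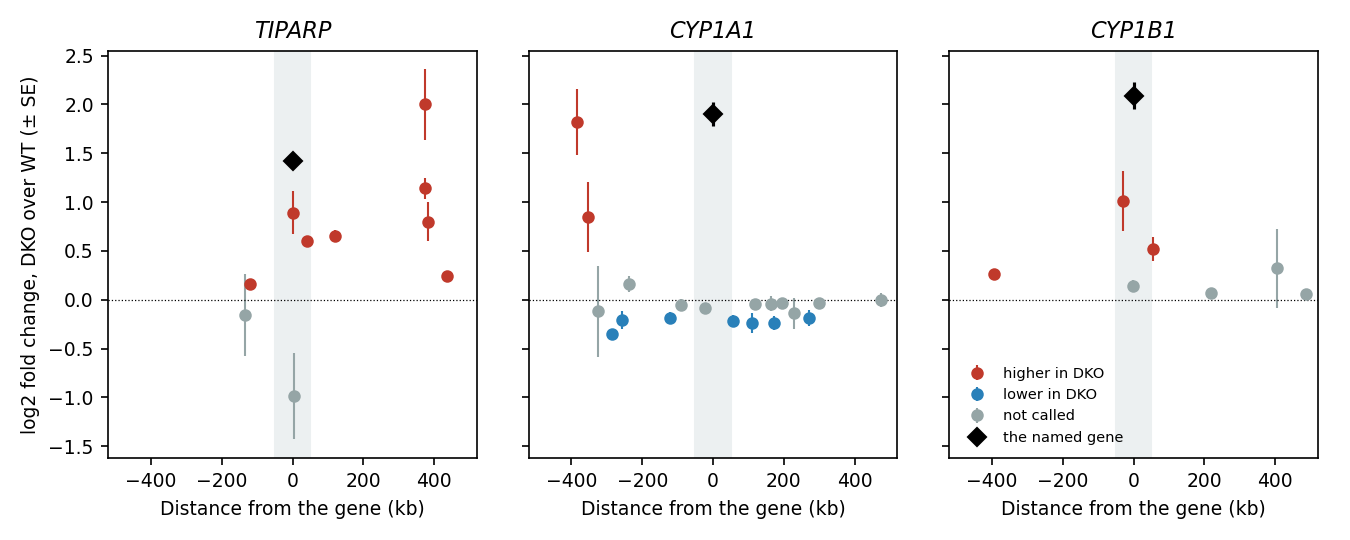
Log2 fold change with its SE against the distance in kb from TIPARP, CYP1A1 and CYP1B1 (black diamonds) for every tested gene within 500 kb, a range chosen after the nearer neighbours had been seen, with the 50 kb window shaded. Around TIPARP 8 of 10 genes, some with overlapping spans, are called higher, or 7 of 9 without LINC02029, which passed the filter through DKO alone. Around CYP1A1 7 of 19 are called lower and 2 higher, and around CYP1B1 3 of 7 are called higher. Of all tested genes, 19% are called higher and 21.1% lower, and no locus was tested as a whole.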

How the data were processed

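The authors' deposited files hold whole-number counts of reads per gene for 2 DKO and 2 WT libraries of HCT116 cells. Reads were aligned to hg38 with STAR 2.7.3a and counted with featureCounts 1.6, per the submitters' processing notes. For the counting, feature type, strand setting and treatment of reads shared by genes: not given in the sources used here.

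Counts were tested in R 4.3.3 with edgeR 4.0.16 (glmQLFit and glmQLFTest, its quasi-likelihood test), with TMM scaling, a filter of at least 10 reads (filterByExpr) and Benjamini-Hochberg adjustment over 19103 genes at 0.05. DESeq2 1.42.0, limma 3.58.1, other scalings and filters, and leaving out each library were alternatives. Of 60656 IDs, 42020 matched a symbol and 40214 a RefSeq span (GRCh38.p14). Intervals cover counting error only where they are Poisson intervals.

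The test was tried on simulated data with known changes. Same-numbered replicates of DKO and WT did not deviate together, so the main fit had no block. Members and lists were chosen with earlier results of these data known. Beyond the 8 genes, named genes were up to 4 called genes of each list with the largest change at a mean log2 CPM of at least 0 (all called genes of a direction with 5 or fewer), called and nearest genes at each locus, and the 3 genes most like TIPARP. NQO1, HSP90AB1, CTSS, EXOC3, ARNT2, VEGFA, IDO1, IL1B, IL6, UGT1A1 and UGT1A6 were named after their values were seen. Some genes that the rule names are not reported here.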

Additional observations from a re-analysis of the deposited data

How the results depend on the processing

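The calls of TIPARP, CYP1A1 and CYP1B1 held under all 15 alternatives, with largest adjusted p-values of 0.00402, 0.0072 and 0.00927 (edgeR, DESeq2 or limma), and AHR was called under none (adjusted p 0.107 to 0.625). ARNT changed sign, to 0.004 with DESeq2 size factors or the DESeq2 Wald test, 0.03 with upper quartile factors, and 0.01 with at least 50 reads in 2 libraries or with protein-coding genes only. It ran from -0.07 to 0.06 with 1 library left out.

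The counts of called genes moved more, and the cause was not tested. With no filter beyond 1 read, 1640 genes were higher and 1655 lower, and the calls were 3 for chaperones, 4 for bHLH-PAS genes, 4 for hypoxia targets and 5 at the loci. Upper quartile factors gave 11 bHLH-PAS calls, and DESeq2 gave 2524 lower genes and 3 tryptophan enzymes, with no adjusted p for TDO2. With 1 library left out, 1023 to 3127 genes were higher and 928 to 3443 lower, and calls were 7 to 11 for other receptor targets, 1 to 6 for chaperones, 4 to 8 for bHLH-PAS genes, 1 to 5 for coactivators, 0 to 4 for tryptophan enzymes, 3 to 8 for hypoxia targets and 2 to 11 at the loci. The low ends came without WT replicate 1 (for bHLH-PAS genes, without either WT replicate). The higher and lower counts were 1467 and 1650 without WT replicate 2.

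With the replicate number as a block, 3742 genes were higher and 4078 lower, and 62 of 63 results kept their direction and side, KYAT3 being the exception (adjusted p = 0.0565, edgeR). The numbers pair nothing in the labels, and the correlation of replicate differences between DKO and WT was 0.0114. Counts of a few reads limit CYP1A2 and ALDH3A1.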

Other observations

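The wider surroundings of TIPARP, read within 500 kb on each side after its nearer neighbours had been seen, held 10 tested genes besides TIPARP, of which 8 were called higher in DKO, none lower and 2 were not called. Their median log2 fold change was 0.62. LINC02029, with 27 and 44 reads in DKO and 8 and 9 in WT, passed the filter on low counts through the DKO libraries alone, and without it 7 of 9 were higher, with a median of 0.6. Among those called higher, the log2 fold change was 1.14 ± 0.11 for LINC00880, 0.8 ± 0.2 for LINC00881, 0.65 ± 0.06 for LEKR1 and 0.24 ± 0.05 for the cyclin gene CCNL1 (SE, edgeR). LEKR1 was read at 40 and 42.3 CPM in DKO and 25.6 and 26.7 CPM in WT. The same range held 19 tested genes around CYP1A1, of which 2 were higher and 7 lower, with a median of -0.09, and 7 around CYP1B1, of which 3 were higher and none lower, with a median of 0.26. Over all tested genes 19% were higher and 21.1% lower. Around TIPARP, the listed spans of LINC02029 and LINC00881 lie inside that of LINC00880, and that of TIPARP-AS1 overlaps TIPARP itself. The genes counted there are therefore not all separate stretches. Neighbouring genes are not independent of each other, and no test of the range as a whole was made.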
